A study of Homo sapiens with 48 samples.

Results

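Expression of 32 genes of cholesterol and fatty acid synthesis was followed in H1975 cells under gefitinib, under 2 preparations named CKI and YFSJ, and under their combinations. The 32 members were taken by gene symbol from a count table of 27978 symbols, and each was read in all 16 groups of the study. They comprised 18 enzymes of the sterol arm, 4 regulatory and transport genes, 7 genes of the fatty acid arm, and 3 targets of the liver X receptors (LXR). All 32 symbols were in the table, and 31 passed the filter on low counts. The LXR target ABCG1, a cholesterol exporter, did not pass. It had 70 counts over the 48 libraries and 0 counts in 15 of them.

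Cells make cholesterol from acetyl-CoA through mevalonate, squalene and lanosterol, and the enzymes of this route are switched together by the transcription factor SREBP-2, the product of SREBF2. SREBP-1, the product of SREBF1, mainly drives genes of fatty acid synthesis and desaturation. When membranes of the endoplasmic reticulum hold little cholesterol, the SREBPs are released from INSIG proteins and processed into active factors. LXR, which is activated by oxysterols, raises exporters such as ABCA1 and ABCG1 and the ubiquitin ligase MYLIP, and it also raises SREBF1.

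H1975 cells come from a human non-small cell lung tumour and carry a mutated EGFR, per the labels. Gefitinib is an inhibitor of the EGFR kinase, and whether it blocked the mutated EGFR of these cells was not tested here. RNA of 48 libraries was sequenced, 3 in each of 16 groups, which the study calls biological replicates. The 14 treated groups were all taken at 24 h, and 8 of them combined a preparation with gefitinib, at every pairing of doses. Gefitinib alone was given at 75 or 50 µM. CKI alone, which the study's title spells out as compound kushen injection, was given at 2 or 1 mg/mL. YFSJ alone, known only by these letters, was given at 5 or 2.5 mg/mL. Untreated cells were taken at 24 h and at 0 h. All groups were the same line in the same medium with serum, and no vehicle group was among those analysed here. Every change below is relative to untreated cells at 24 h unless another group is named.

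Library totals ran from 16428398 to 26264162 counts. Levels are given as CPM, which is counts scaled to library totals corrected by TMM factors. A level of 3 counts was 0.185 CPM at the lowest depth and 0.107 CPM at the highest. Changes are log2 fold changes with their standard errors (SE) from edgeR's quasi-likelihood test, called at an adjusted p (Benjamini-Hochberg over 15789 genes) under 0.05. The catalogue number in the labels belongs to a breast line, MCF-7. The lung marker NKX2-1 had a median of 44.7 CPM and EGFR 96.5 CPM, but the lung marker NAPSA only 1.93 CPM. The luminal breast markers ESR1, PGR, TFF3, GATA3 and FOXA1 had medians of 0.125, 0, 0, 0.681 and 2.18 CPM. CDKN2A, which MCF-7 cells lack, had a median of 69.6 CPM. In 10 libraries ALB, a liver transcript, had 2581 to 3557 counts, against 0 to 8 counts in the other 38. These were all libraries of YFSJ 2.5 mg/mL, all of CKI 2 mg/mL with gefitinib 75 µM, libraries 1 and 3 of CKI 2 mg/mL with gefitinib 50 µM, and libraries 2 and 3 of CKI 1 mg/mL with gefitinib 75 µM. The summed level of 12 liver markers was 184 to 265 CPM in these 10 libraries and 4.40 to 23.4 CPM in the others.

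Gefitinib raised nearly the whole sterol arm. At 75 µM, 17 of 18 sterol enzymes rose and none fell, with a median log2 change of 1.30, and at 50 µM again 17 rose, with a median of 1.36. Over all 31 members tested, 26 rose and 3 fell at each dose. By the same rule 54.7% of all genes tested were called at 75 µM and 54.4% at 50 µM, in both directions together, and the median change of all genes was 0.02 and 0.03.

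LSS, lanosterol synthase, which closes the sterol ring system, had 578, 564 and 627 CPM at gefitinib 75 µM and 584, 687 and 539 CPM at 50 µM, against 74.7, 64.9 and 77.6 CPM in untreated cells. All 6 gefitinib libraries stood far above the 3 untreated ones. The change of LSS was 3.02 ± 0.14 at 75 µM (edgeR adjusted p = 6.64e-23) and 3.06 ± 0.14 at 50 µM (adjusted p = 4.49e-23). TM7SF2, a sterol reductase acting after lanosterol, had 29.4, 31.4 and 28.2 CPM at 75 µM, against 3.68, 3.35 and 3.47 CPM in untreated cells. Its change was 3.08 ± 0.19 (adjusted p = 1.11e-17). An annotated exon of VPS51 overlaps that of TM7SF2 by 16 bases on the same strand. HMGCS1, the synthase that makes the HMG-CoA from which mevalonate is formed, had 429, 448 and 408 CPM at 75 µM and 440, 439 and 515 CPM at 50 µM, against 129, 116 and 115 CPM in untreated cells. It rose by 1.84 ± 0.11 at 75 µM (adjusted p = 6.81e-19), again with no overlap of the libraries.

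The enzymes that turn mevalonate into isoprenoid units rose unequally at gefitinib 75 µM. MVK, mevalonate kinase, rose by 1.28 ± 0.13 and MVD, which decarboxylates the activated mevalonate, by 2.11 ± 0.18. PMVK, the kinase between them, was the sterol enzyme not called at either dose. PMVK had 92.7, 84.2 and 86.1 CPM at 75 µM, against 92.9, 71.1 and 91.1 CPM in untreated cells, a change of 0.04 with a 95% interval of -0.18 to 0.26. IDI1, the isomerase of the isoprenoid unit, rose by 1.05 ± 0.14, and FDPS, which joins these units to farnesyl diphosphate, by 1.12 ± 0.11. ACAT2, which makes acetoacetyl-CoA at the entry of the pathway, rose by 1.39 ± 0.14. Its exons overlap those of SOD2 and TCP1 on the other strand, and reads of the 2 strands cannot be told apart in these unstranded libraries. The same limit holds for MVK with MMAB, for FADS1 with FADS2 and for SREBF1 with RAI1. Besides TM7SF2, same-strand exon overlaps were annotated for FADS2 with FEN1 (49 bases) and for FADS1 with MIR1908 (80 bases). CYP51A1 overlaps AC000120.2 by 1685 bases and AC000120.3 by 99 on the same strand, and neither is in the count table.

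The steps committed to sterols all rose at 75 µM. FDFT1, squalene synthase, rose by 1.32 ± 0.10 and SQLE, the squalene epoxidase, by 1.57 ± 0.08. Of the enzymes that trim lanosterol, CYP51A1, the demethylase, rose by 1.23 ± 0.09, MSMO1, the methyl oxidase, by 2.01 ± 0.12, NSDHL, a sterol dehydrogenase, by 0.65 ± 0.10, and HSD17B7, a ketosteroid reductase, by 1.04 ± 0.14. Of the last enzymes of the route, EBP, a sterol isomerase, rose by 0.52 ± 0.11, SC5D, a sterol desaturase, by 0.81 ± 0.10, and DHCR7, the final reductase, by 1.95 ± 0.12. The adjusted p of these genes ran up to 0.000131, the value of EBP. The heat map of the members in all groups shows the sterol arm as a band of raised values in the gefitinib groups.

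**Figure D1:**
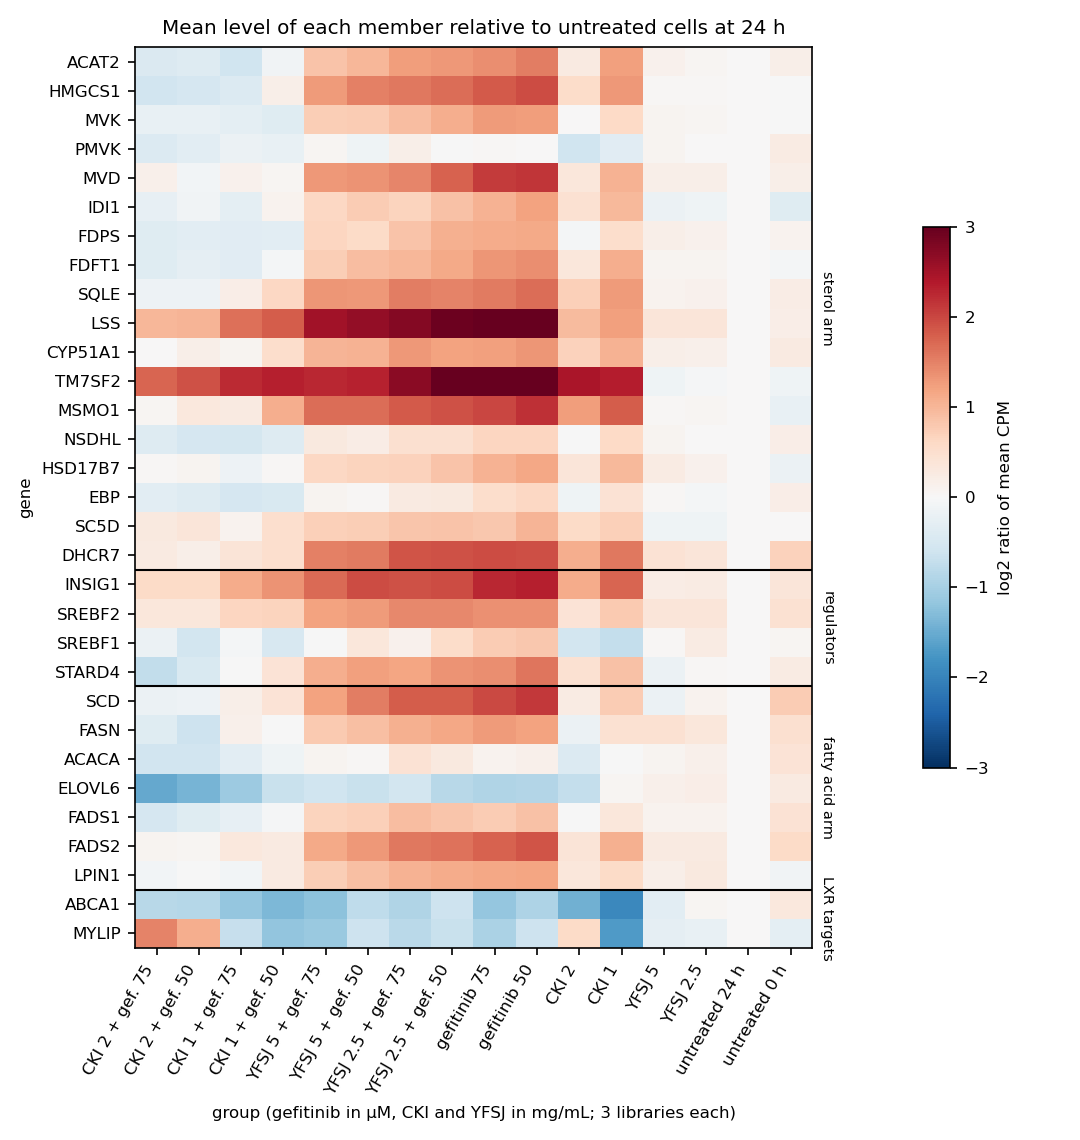
Log2 ratio of each tested member's mean CPM (rows, by arm) in each group of 3 libraries (columns) to its mean in untreated cells at 24 h; red is higher and blue lower. The sterol rows are red under gefitinib, with LSS and TM7SF2 at a log2 change of about 3.02 and 3.08 at 75 µM, paler under CKI, and paler still for most enzymes where CKI was given with gefitinib, where LSS and TM7SF2 remain red.

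The regulators moved in the same direction. INSIG1, which holds the SREBPs back and is itself a target of theirs, had 435, 440 and 413 CPM at gefitinib 75 µM and 455, 404 and 483 CPM at 50 µM, against 90.1, 83.5 and 94.0 CPM in untreated cells. The rise of INSIG1 was 2.27 ± 0.11 at 75 µM (adjusted p = 1.97e-22). SREBF2 had 346, 328 and 371 CPM at 75 µM and 351, 386 and 312 CPM at 50 µM, against 133, 134 and 140 CPM in untreated cells, a rise of 1.36 ± 0.10 at 75 µM (adjusted p = 2.89e-15). SREBF1 had 326, 304 and 351 CPM at 75 µM and 346, 410 and 253 CPM at 50 µM, against 157, 199 and 223 CPM in untreated cells. It rose by less, 0.76 ± 0.21 at 75 µM (adjusted p = 0.00289), although the libraries did not overlap. STARD4, a carrier of sterols between membranes, had 31.6, 41.4 and 31.9 CPM at 75 µM and 34.4, 35.9 and 50.4 CPM at 50 µM, against 15, 13.7 and 11.1 CPM in untreated cells, and rose by 1.40 ± 0.15 (adjusted p = 1.27e-10).

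Promoter sequence is shown for SREBF2, the member whose promoter held the core letters of the sterol regulatory element, and for LSS and INSIG1, chosen for their large rises after their values were seen. The letters searched, on both strands, were TCACNCCAC for that core, CCAAT for the NF-Y box, GGGCGG for the Sp1 box and CACGTG for the E-box, in 300 bases around the start of each gene in RefSeq (GRCh38.p14). The 250 bases before each start are printed 5′ to 3′ on the gene's strand, with matches to the first 3 motifs in capitals. SREBF2 is at chr22:41832855-41833104 on the + strand, LSS at chr21:46228775-46229024 on the - strand, and INSIG1 at chr7:155297628-155297877 on the + strand.
SREBF2: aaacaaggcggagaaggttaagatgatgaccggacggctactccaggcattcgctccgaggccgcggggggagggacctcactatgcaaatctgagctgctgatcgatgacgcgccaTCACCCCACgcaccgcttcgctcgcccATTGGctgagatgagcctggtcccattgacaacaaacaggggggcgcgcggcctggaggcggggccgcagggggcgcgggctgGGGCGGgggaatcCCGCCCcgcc
LSS: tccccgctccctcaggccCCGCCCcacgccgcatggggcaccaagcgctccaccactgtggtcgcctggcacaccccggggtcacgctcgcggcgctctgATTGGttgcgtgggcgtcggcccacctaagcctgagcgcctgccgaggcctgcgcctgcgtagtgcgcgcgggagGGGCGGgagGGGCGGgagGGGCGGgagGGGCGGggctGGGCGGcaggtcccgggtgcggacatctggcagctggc
INSIG1: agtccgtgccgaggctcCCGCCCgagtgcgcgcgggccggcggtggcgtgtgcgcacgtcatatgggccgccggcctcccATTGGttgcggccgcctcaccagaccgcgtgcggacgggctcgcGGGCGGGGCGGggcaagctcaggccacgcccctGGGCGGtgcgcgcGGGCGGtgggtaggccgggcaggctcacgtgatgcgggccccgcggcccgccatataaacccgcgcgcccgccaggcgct
Of the 32 members, 27 matched an entry of the promoter table, which holds 35116 promoters of 27305 genes. A gene was counted where any of its promoters held the letters. The core of the sterol regulatory element was in 1 of these 27 members and in 1.39% of the 27305 genes. CCAAT was in 20 of 27 members (74.1%) and in 13 of 15 sterol enzymes (86.7%), against 39.7% of all genes of the table. GGGCGG was in 26 of 27 members (96.3%), against 48.3% of all genes, and CACGTG in 4 of 27 (14.8%), against 8.77%. A match is a string of letters, and no binding was measured. Only these letters in these 300 bases were searched, so a missing match does not show that a gene lacks a sterol regulatory element.

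The fatty acid arm was split under gefitinib. At 75 µM 5 of its 7 genes rose and 1 fell, with a median change of 1.16 (54.7% of all genes called). SCD, the desaturase that makes oleate, had 1525, 1682 and 1573 CPM at 75 µM and 1718, 1742 and 1882 CPM at 50 µM, against 429, 397 and 394 CPM in untreated cells. Its rise was 1.97 ± 0.14 at 75 µM (adjusted p = 1.23e-16). FASN, fatty acid synthase, had 1264, 1218 and 1470 CPM at 75 µM and 1203, 1526 and 1024 CPM at 50 µM, against 480, 566 and 584 CPM in untreated cells, a rise of 1.28 ± 0.15 (adjusted p = 3.28e-09). FADS2 and FADS1, which desaturate polyunsaturated fatty acids, rose by 1.76 ± 0.14 and 0.76 ± 0.09, and LPIN1, a phosphatidate phosphatase, by 1.16 ± 0.11.

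ACACA, the carboxylase that supplies malonyl-CoA to FASN, was not called. Its change was 0.10 with a 95% interval of -0.10 to 0.30. ELOVL6, which elongates palmitate, had 43.6, 48.7 and 46.5 CPM at 75 µM and 49.2, 41.9 and 48.9 CPM at 50 µM, against 84.7, 91.7 and 81.9 CPM in untreated cells. All 6 gefitinib libraries were below the untreated ones, and ELOVL6 fell by 0.90 on the log2 scale (SE 0.10, adjusted p = 3.17e-10).

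Both LXR targets that could be tested fell under gefitinib. ABCA1, which exports cholesterol, had 17.1, 18.8 and 18.2 CPM at 75 µM and 18.8, 20.7 and 24.4 CPM at 50 µM, against 40.5, 46.5 and 34.7 CPM in untreated cells. Its change was -1.17 ± 0.13 at 75 µM (adjusted p = 3.4e-10). MYLIP, the ligase that marks lipoprotein receptors for degradation, had 6.11, 7.55 and 7.03 CPM at 75 µM and 7.29, 8.68 and 9.79 CPM at 50 µM, against 14.2, 14.2 and 11.4 CPM in untreated cells, a change of -0.94 ± 0.17 (adjusted p = 9.99e-06). ABCG1 had 3, 0 and 1 counts in the libraries at 75 µM and 1, 1 and 2 at 50 µM, against 2, 1 and 2 counts in untreated cells, too few for a comparison.

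The 2 gefitinib doses gave nearly the same levels. No member was called by edgeR or DESeq2 for 75 µM against 50 µM, and 0 had an unadjusted p under 0.05 in edgeR, while 5 genes in all (0.0317%) were called. LSS differed by -0.03 (95% interval -0.29 to 0.22), INSIG1 by -0.06 (-0.26 to 0.14), SCD by -0.16 (-0.43 to 0.11) and MYLIP by -0.32 (-0.68 to 0.04).

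**Figure D2:**
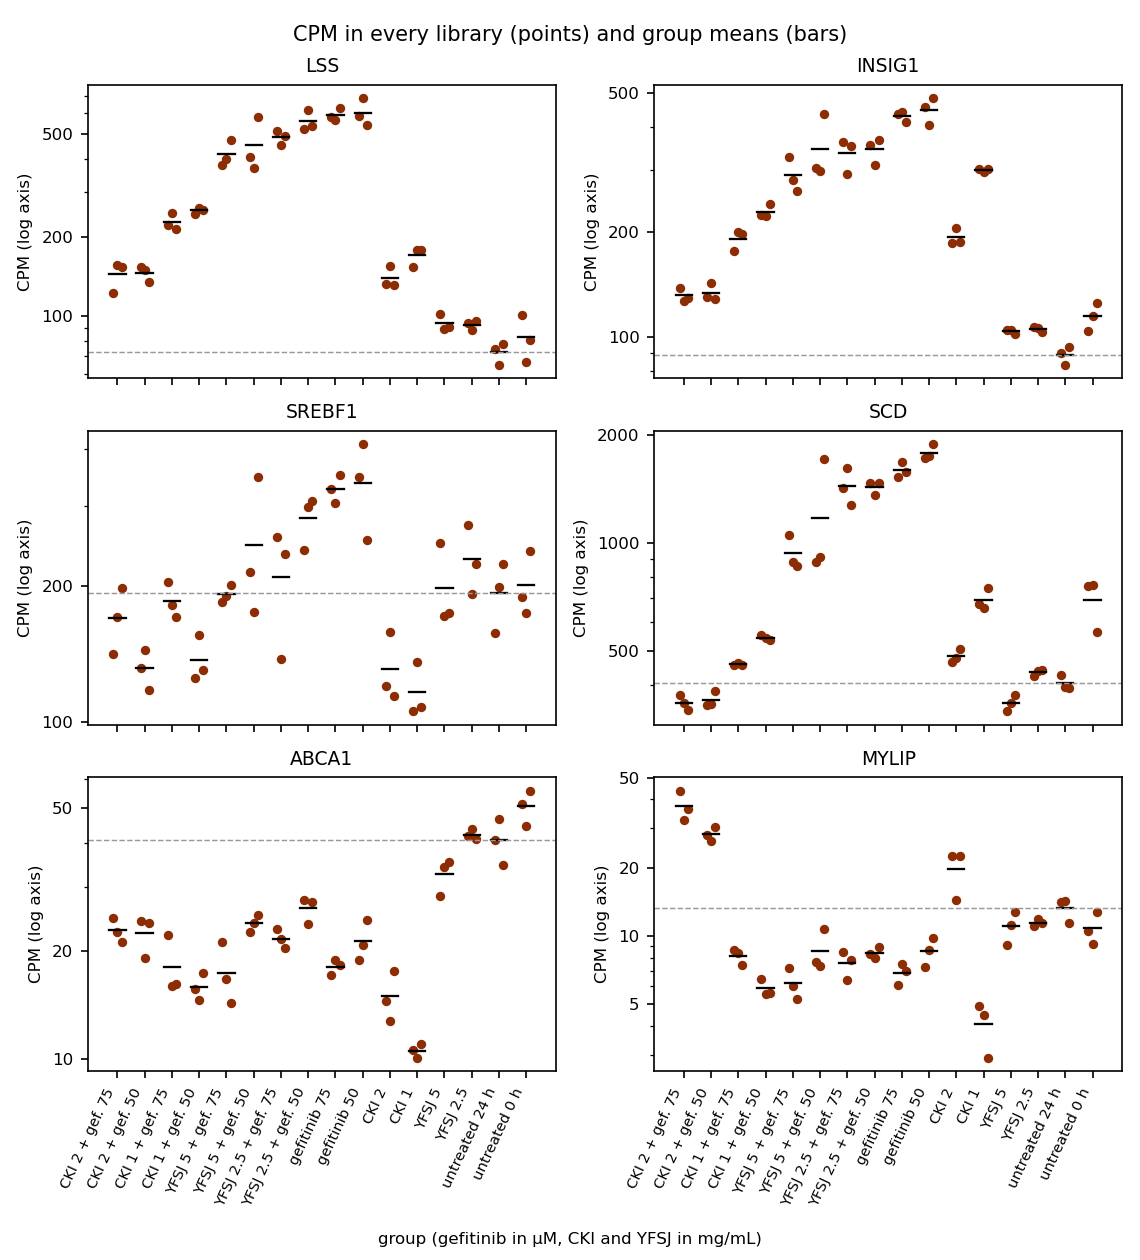
CPM (log axis) of LSS, INSIG1, SREBF1, SCD, ABCA1 and MYLIP in each library (points) with group means (bars) in the 16 groups; the dashed line is the mean of untreated cells at 24 h. LSS, INSIG1 and SCD are high in the groups with gefitinib alone or with YFSJ and much lower where CKI was added, and MYLIP lies above the line only in the groups with CKI 2 mg/mL.

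CKI alone also raised the sterol arm, and more so at its lower dose. At 2 mg/mL 11 of 18 sterol enzymes rose and 1 fell, with a median of 0.40, and at 1 mg/mL 17 rose and 1 fell, with a median of 1.05. Over all members 17 rose and 5 fell at 2 mg/mL, where 51.2% of all genes were called, and 25 rose and 4 fell at 1 mg/mL, where 27.9% were called. Set against 1 mg/mL, the 2 mg/mL dose gave lower levels of 23 members and higher levels of 2, with 32.7% of all genes called. The 2 members higher were ABCA1 and MYLIP.

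INSIG1 had the smallest p of the regulators at both doses, with 186, 206 and 188 CPM at 2 mg/mL and 303, 296 and 304 CPM at 1 mg/mL, against 90.1, 83.5 and 94.0 CPM in untreated cells. The 3 groups did not overlap, and the rises were 1.12 ± 0.10 at 2 mg/mL (adjusted p = 2.46e-12) and 1.75 ± 0.10 at 1 mg/mL (adjusted p = 2.83e-17). MSMO1 had 113, 99.8 and 115 CPM at 2 mg/mL and 167, 154 and 168 CPM at 1 mg/mL, against 47.7, 48.4 and 41.6 CPM in untreated cells. It had the smallest p of the sterol arm at 1 mg/mL, with a rise of 1.83 ± 0.12 (adjusted p = 3.74e-16). HMGCS1 had 178, 165 and 180 CPM at 2 mg/mL and 300, 265 and 319 CPM at 1 mg/mL, against 129, 116 and 115 CPM in untreated cells. Between the doses it differed by -0.76 ± 0.11 (adjusted p = 3.58e-07).

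TM7SF2 and LSS rose at both CKI doses, and neither was called between them. TM7SF2 had 19.9, 21.5 and 16 CPM at 2 mg/mL and 16, 21.1 and 16.7 CPM at 1 mg/mL, against 3.68, 3.35 and 3.47 CPM in untreated cells, with rises of 2.45 ± 0.19 (adjusted p = 5.04e-14) and 2.35 ± 0.20 (adjusted p = 7.14e-13). LSS had 132, 156 and 131 CPM at 2 mg/mL and 154, 180 and 179 CPM at 1 mg/mL, against 74.7, 64.9 and 77.6 CPM in untreated cells. Between the doses LSS differed by -0.29 with a 95% interval of -0.55 to -0.03, which was not called (adjusted p = 0.0759). The sterol enzymes not called at 2 mg/mL were ACAT2, MVK, MVD, FDPS, NSDHL and EBP, with changes of -0.14 to 0.33, and the one that fell at both doses was PMVK, with -0.59 ± 0.11 at 2 mg/mL and -0.34 ± 0.11 at 1 mg/mL. The call of PMVK at 1 mg/mL was lost without library 1 or 3 of untreated cells and without library 1 or 3 of CKI.

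SREBF2 had 176, 189 and 178 CPM at CKI 2 mg/mL and 218, 241 and 246 CPM at 1 mg/mL, against 133, 134 and 140 CPM in untreated cells, with rises of 0.42 ± 0.10 (adjusted p = 0.00065) and 0.80 ± 0.10 (adjusted p = 4.7e-08). SREBF1 went the other way. It had 120, 158 and 114 CPM at 2 mg/mL and 106, 136 and 108 CPM at 1 mg/mL, against 157, 199 and 223 CPM in untreated cells, and changed by -0.56 ± 0.21 (adjusted p = 0.03) and -0.72 ± 0.22 (adjusted p = 0.0103). The call of SREBF1 was lost at both doses without library 3 of untreated cells, and at 2 mg/mL also without library 2 of untreated cells, without library 1 or 3 of CKI, with library totals alone and without the filter on low counts. STARD4 had 18.6, 16.3 and 19.9 CPM at 2 mg/mL and 24.4, 20.2 and 29.1 CPM at 1 mg/mL, against 15, 13.7 and 11.1 CPM in untreated cells, with rises of 0.46 ± 0.15 (adjusted p = 0.0119) and 0.89 ± 0.15 (adjusted p = 1.13e-05).

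In the fatty acid arm CKI 2 mg/mL raised 2 of 7 genes and lowered 2, with a median of 0.00 (51.2% of all genes called). CKI 1 mg/mL raised 5 and lowered none, with a median of 0.45 (27.9% of all genes called). FADS2, with the smallest p of this arm at 1 mg/mL, had 77.2, 85.7 and 73.0 CPM at 2 mg/mL and 123, 129 and 128 CPM at 1 mg/mL, against 53.5, 59.9 and 67.2 CPM in untreated cells. ELOVL6, with the smallest p at 2 mg/mL, had 54.5, 47.1 and 54.9 CPM at that dose and 90.0, 84.1 and 94.6 CPM at 1 mg/mL, against 84.7, 91.7 and 81.9 CPM in untreated cells. Its change was thus -0.72 ± 0.10 at 2 mg/mL (adjusted p = 6.31e-08) and 0.06 at 1 mg/mL, where the 95% interval was -0.14 to 0.26. SCD had 465, 476 and 504 CPM at 2 mg/mL and 674, 659 and 748 CPM at 1 mg/mL, against 429, 397 and 394 CPM in untreated cells, and its rise of 0.77 ± 0.13 was called at 1 mg/mL (adjusted p = 1.16e-05) but not the change of 0.25 at 2 mg/mL (95% interval -0.02 to 0.51). FASN had 461, 527 and 458 CPM at 2 mg/mL and 669, 786 and 777 CPM at 1 mg/mL, against 480, 566 and 584 CPM in untreated cells. The difference between the doses was called for both, at -0.53 ± 0.13 for SCD (adjusted p = 0.00177) and -0.63 ± 0.15 for FASN (adjusted p = 0.00152).

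The LXR targets parted at the higher CKI dose. ABCA1 had 14.5, 12.7 and 17.5 CPM at 2 mg/mL and 10.6, 10.1 and 11.0 CPM at 1 mg/mL, against 40.5, 46.5 and 34.7 CPM in untreated cells, changes of -1.44 ± 0.13 (adjusted p = 2.03e-12) and -1.94 ± 0.14 (adjusted p = 3.69e-15). MYLIP had 22.5, 14.4 and 22.4 CPM at 2 mg/mL and 4.93, 4.47 and 2.91 CPM at 1 mg/mL, against 14.2, 14.2 and 11.4 CPM in untreated cells. It was above untreated cells at 2 mg/mL (0.57 ± 0.16, adjusted p = 0.00242) and below them at 1 mg/mL (-1.70 ± 0.18, adjusted p = 3.7e-10), and the difference between the doses was 2.27 ± 0.18 (adjusted p = 1.63e-13). ABCG1 had 2 counts at 2 mg/mL and 1 count at 1 mg/mL over 3 libraries each.

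Gefitinib at 75 µM and CKI at 2 mg/mL were also set against each other. Gefitinib gave higher levels of 28 members and a lower level of MYLIP, by -1.51 ± 0.17, with 54.3% of all genes called. All 18 sterol enzymes were higher with gefitinib, by a median of 0.80. ELOVL6 and ABCA1 were not called, with differences of -0.17 ± 0.10 and 0.28 ± 0.14.

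YFSJ alone left most members near their untreated level. At 5 mg/mL 2 members rose and none fell, with 6.48% of all genes called, and at 2.5 mg/mL 1 rose and none fell, with 2.93% called. SREBF2 had 186, 167 and 173 CPM at 5 mg/mL and 180, 160 and 185 CPM at 2.5 mg/mL, against 133, 134 and 140 CPM in untreated cells, a rise of 0.37 ± 0.10 at each dose (adjusted p = 0.0197 at 5 mg/mL and 0.0347 at 2.5 mg/mL). DHCR7, with the smallest p of the sterol arm at both doses, had 145, 129 and 137 CPM at 5 mg/mL and 135, 124 and 130 CPM at 2.5 mg/mL, against 92.7, 101 and 109 CPM in untreated cells. Its rise of 0.44 ± 0.12 passed at 5 mg/mL (adjusted p = 0.0152), and the change of 0.36 ± 0.12 at 2.5 mg/mL did not (adjusted p = 0.0783). These calls rested on single libraries. The count at 5 mg/mL was 0 without library 1 or library 2 of untreated cells, or without library 1 of YFSJ 5 mg/mL. The count at 2.5 mg/mL was 0 without any 1 of the untreated libraries, or without library 1 or 3 of YFSJ 2.5 mg/mL.

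HMGCS1 had 115, 128 and 125 CPM at YFSJ 5 mg/mL and 121, 129 and 121 CPM at 2.5 mg/mL, and SREBF1 had 248, 171 and 174 CPM at 5 mg/mL and 272, 191 and 223 CPM at 2.5 mg/mL. Both overlapped the untreated libraries. INSIG1, at 105, 105 and 102 CPM at 5 mg/mL and 107, 107 and 103 CPM at 2.5 mg/mL, lay above the untreated libraries and was not called. LSS had 102, 88.6 and 90.7 CPM at YFSJ 5 mg/mL and 93.6, 88.1 and 95.8 CPM at 2.5 mg/mL. All 6 values lay above the untreated libraries, whose highest was 77.6 CPM, but the change at 5 mg/mL, 0.37 with a 95% interval of 0.11 to 0.63, was not called. Of the fatty acid arm, FASN had the smallest p at 5 mg/mL, with 859, 664 and 705 CPM (0.45 ± 0.15, adjusted p = 0.066), and LPIN1 at 2.5 mg/mL, with 43.1, 51.5 and 52.5 CPM, against 42.5, 40.3 and 36.8 CPM in untreated cells (0.30 ± 0.11, adjusted p = 0.12). ABCA1 had 28.4, 34.2 and 35.2 CPM at 5 mg/mL and MYLIP 11.0, 11.9 and 11.4 CPM at 2.5 mg/mL, and neither was called. Between 5 and 2.5 mg/mL no member was called by edgeR or DESeq2, with 2 at an unadjusted p under 0.05 in edgeR and 0.374% of all genes called. The 3 libraries of YFSJ 2.5 mg/mL are among those with liver transcripts, and with a term for such libraries the call of SREBF2 at 2.5 mg/mL was lost, leaving no member called higher. All 3 libraries of this group hold such transcripts, so the group gives no information on the size of the term. That size came from CKI 1 mg/mL with 75 µM and CKI 2 mg/mL with 50 µM, whose libraries differ in them. Within YFSJ 2.5 mg/mL, liver transcripts cannot be told apart from the treatment.

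With both agents the sterol arm was far below its level with gefitinib alone, although each agent alone had raised it. The mean log2 level of the arm relative to untreated cells was -0.0024 with CKI 2 mg/mL and gefitinib 75 µM, 0.04 with CKI 2 mg/mL and 50 µM, 0.07 with CKI 1 mg/mL and 75 µM, and 0.32 with CKI 1 mg/mL and 50 µM. In the last of these all 3 libraries, at 0.31 to 0.33, lay above the untreated ones, at -0.07 to 0.05. There 7 of 18 enzymes were called above untreated cells and 4 below, with 54.9% of all genes called. Against gefitinib 75 µM, the addition of CKI 2 mg/mL lowered all 18 sterol enzymes, with a median of -1.50, and 29 members in all, while 2 members rose, with 58.2% of all genes called. The addition of CKI 1 mg/mL to 75 µM lowered 27 members and raised none (34.6% of all genes called). At 50 µM, CKI 2 mg/mL lowered 29 members and raised 1 (53.6% called), and CKI 1 mg/mL lowered 29 and raised none (31.8% called).

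HMGCS1 had 90.4, 76.5 and 76.3 CPM with CKI 2 mg/mL and gefitinib 75 µM, against 429, 448 and 408 CPM with gefitinib 75 µM alone, 178, 165 and 180 CPM with CKI 2 mg/mL alone, and 129, 116 and 115 CPM in untreated cells. The libraries with both agents were thus the lowest of the 4 groups. The change on adding CKI was -2.40 ± 0.11 (adjusted p = 9.82e-22). LSS had 122, 157 and 154 CPM with both agents, against 578, 564 and 627 CPM with gefitinib 75 µM alone and 132, 156 and 131 CPM with CKI alone. It fell by 2.03 on the log2 scale against gefitinib (SE 0.13, adjusted p = 3.06e-17) and differed by 0.04 from CKI alone (95% interval -0.21 to 0.30). INSIG1 had 138, 127 and 129 CPM with both, against 435, 440 and 413 CPM with gefitinib alone and 186, 206 and 188 CPM with CKI alone, a change of -1.70 ± 0.10 against gefitinib (adjusted p = 4.43e-18). STARD4 had 8.92, 6.89 and 8.01 CPM with both, against 31.6, 41.4 and 31.9 CPM with gefitinib alone, 18.6, 16.3 and 19.9 CPM with CKI alone and 15, 13.7 and 11.1 CPM in untreated cells.

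SREBF2 had 158, 179 and 175 CPM with CKI 2 mg/mL and gefitinib 75 µM, against 346, 328 and 371 CPM with gefitinib alone, a change of -1.03 ± 0.10 (adjusted p = 1.35e-11). SREBF1 had 142, 171 and 198 CPM with both, against 326, 304 and 351 CPM with gefitinib alone, a change of -0.94 ± 0.22 (adjusted p = 0.000317). In the fatty acid arm all 7 genes fell against gefitinib 75 µM, with a median of -1.26 (58.2% of all genes called). SCD had 375, 357 and 340 CPM with both, against 1525, 1682 and 1573 CPM with gefitinib alone, and FASN had 356, 440 and 466 CPM with both, against 1264, 1218 and 1470 CPM. The changes were -2.16 ± 0.14 for SCD (adjusted p = 1.95e-17) and -1.65 ± 0.16 for FASN (adjusted p = 8.17e-12), and no library with both agents reached the lowest gefitinib library of either gene. ELOVL6, which gefitinib 75 µM and CKI 2 mg/mL had each lowered, had 31.5, 29 and 28.0 CPM with both, against 43.6, 48.7 and 46.5 CPM with gefitinib alone (-0.65 ± 0.10, adjusted p = 7.74e-07) and 54.5, 47.1 and 54.9 CPM with CKI alone.

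The LXR targets were the members that rose when CKI 2 mg/mL was added to gefitinib 75 µM. MYLIP had 43.7, 32.6 and 36.2 CPM with both agents, against 6.11, 7.55 and 7.03 CPM with gefitinib alone, 22.5, 14.4 and 22.4 CPM with CKI alone and 14.2, 14.2 and 11.4 CPM in untreated cells. Every library with both agents was above every library of the other 3 groups, and the change against gefitinib was 2.44 ± 0.17 (adjusted p = 2.53e-16). ABCA1 had 24.6, 22.6 and 21.1 CPM with both, against 40.5, 46.5 and 34.7 CPM in untreated cells, and was called lower than in them (-0.83 ± 0.13, edgeR adjusted p = 3.71e-07). Against the 17.1, 18.8 and 18.2 CPM with gefitinib alone it showed a smaller rise of 0.33 ± 0.13 (adjusted p = 0.0286). That call was lost without library 1 or 3 of gefitinib 75 µM and without library 1 or 2 of the combination, where 1 member, not 2, was called higher, and with a term for libraries holding liver transcripts. With CKI 1 mg/mL and gefitinib 75 µM, MYLIP had 8.67, 8.39 and 7.43 CPM, close to gefitinib alone (0.25 ± 0.17, adjusted p = 0.289). ABCA1 was not called there (0.004 ± 0.13). With CKI 1 mg/mL and 50 µM both genes were called lower than with gefitinib 50 µM. ABCA1 changed by -0.43 ± 0.13 (edgeR adjusted p = 0.0115) and MYLIP by -0.56 ± 0.17 (adjusted p = 0.0127). With CKI 2 mg/mL and 50 µM, MYLIP rose by 1.70 ± 0.16 against gefitinib 50 µM, and ABCA1 was not called (0.07 ± 0.13). ABCG1 had 11 counts with CKI 2 mg/mL and gefitinib 75 µM, 7 with CKI 2 mg/mL and 50 µM, and 13 with CKI 1 mg/mL and 75 µM. It had 4 counts with CKI 1 mg/mL and 50 µM, the same as the 4 with gefitinib at either dose. No single library had more than 7 counts, too few for a comparison.

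**Figure D3:**
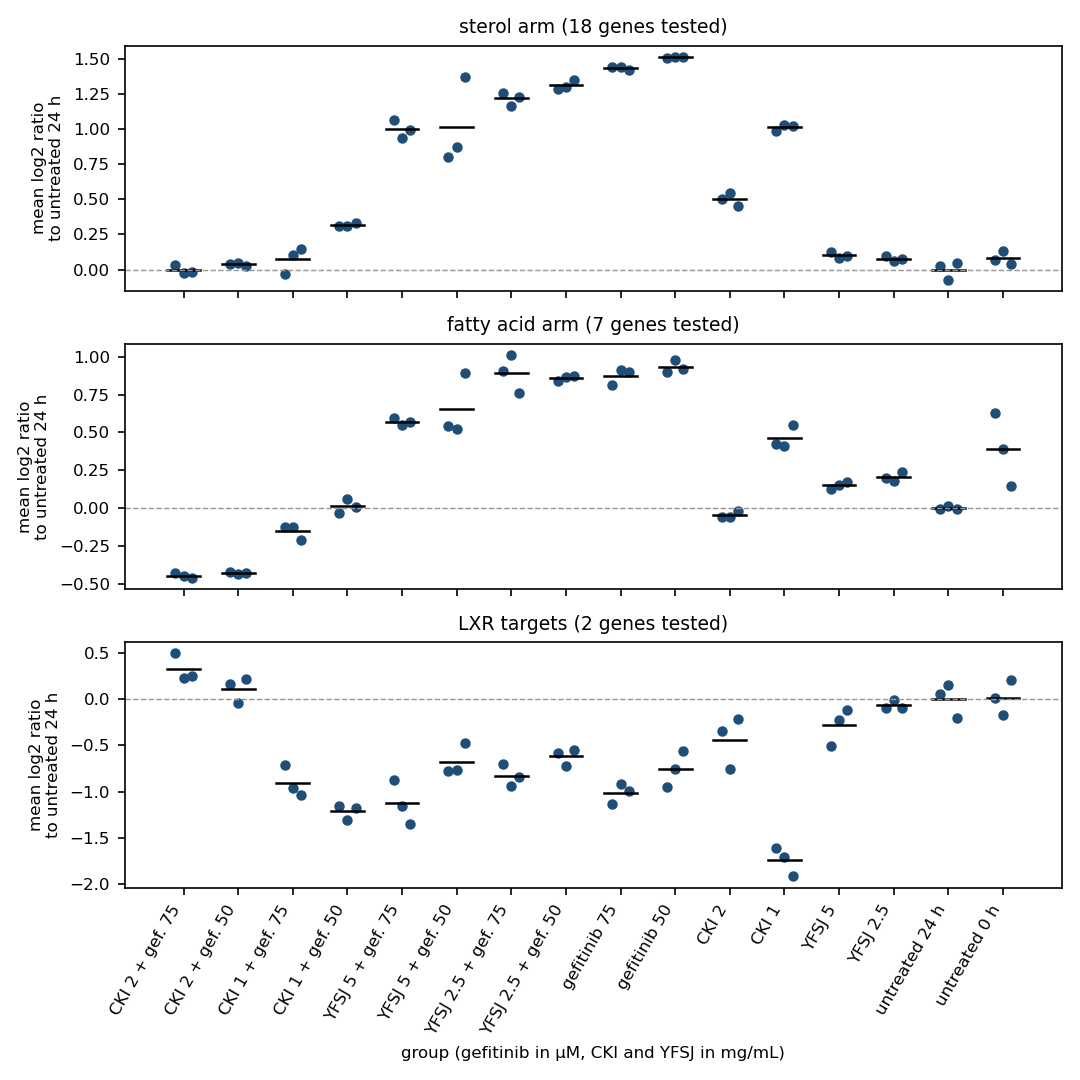
Mean log2 ratio of the tested genes of the sterol arm, the fatty acid arm and the LXR targets to their mean in untreated cells at 24 h (y axis) in each library (points), with group means (bars), in the 16 groups. The sterol arm averages -0.0024 with CKI 2 mg/mL and gefitinib 75 µM, 1.43 with gefitinib 75 µM and 0.50 with CKI 2 mg/mL, and the libraries of these groups do not overlap.

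The mean log2 level of the sterol arm relative to untreated cells was -0.0024 ± 0.03 with CKI 2 mg/mL and gefitinib 75 µM, 1.43 ± 0.01 with gefitinib 75 µM and 0.50 ± 0.05 with CKI 2 mg/mL, where untreated cells, set to a mean of 0, had an SD of 0.06 (n = 3 each). The fatty acid arm averaged -0.45 ± 0.02 with both agents, 0.88 ± 0.05 with gefitinib and -0.05 ± 0.03 with CKI, and untreated cells had an SD of 0.01. The sterol mean near 0 held genes on both sides: with both agents, 4 sterol enzymes were above untreated cells, 7 below and 7 not called, and of the fatty acid genes 4 were below and none above. Contrasts of the combinations with untreated cells were added after the values had been seen. Against untreated cells, CKI 2 mg/mL with gefitinib 75 µM gave 7 members higher and 13 lower (62.1% of all genes called), CKI 2 mg/mL with 50 µM gave 7 higher and 14 lower (58.1% called), CKI 1 mg/mL with 75 µM gave 8 higher and 12 lower (59.8% called), and CKI 1 mg/mL with 50 µM gave 12 higher and 7 lower (54.9% called). In either direction 20, 21, 20 and 19 of 31 members were thus called, shares not far above those of all genes. LSS and TM7SF2 stayed high, at 0.99 ± 0.13 and 1.73 ± 0.20 with CKI 2 mg/mL and gefitinib 75 µM, and ELOVL6 was low, at -1.54 ± 0.10. Under scaling by library totals alone, fewer members were called lower in these 4 contrasts, 8, 6, 6 and 3 in place of 13, 14, 12 and 7.

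Set against CKI alone, the addition of gefitinib lowered more members than it raised at every dose pair. It lowered 18 members and raised 2 for CKI 2 mg/mL with 75 µM (30.1% of all genes called) and lowered 16 and raised 2 for CKI 2 mg/mL with 50 µM (11.1% called). For CKI 1 mg/mL it lowered 23 and raised 4 with 75 µM (47.7% called), and lowered 22 and raised 3 with 50 µM (39% called). In both pairs with CKI 2 mg/mL the 2 members that rose were ABCA1 and MYLIP. With 50 µM the call of MYLIP (0.51 ± 0.15, adjusted p = 0.0207) was lost without library 2 of CKI alone, without library 1 or 3 of the combination, and with a term for libraries holding liver transcripts. LSS rose with CKI 1 mg/mL, to 224, 248 and 216 CPM with 75 µM and 247, 261 and 254 CPM with 50 µM, against 154, 180 and 179 CPM with CKI 1 mg/mL alone, by 0.43 ± 0.13 (adjusted p = 0.00495) and 0.57 ± 0.13 (adjusted p = 0.000319).

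The departure from additive changes was tested as an interaction, the change with both agents minus the sum of the separate changes on the log2 scale, averaged over the 4 dose pairs. For CKI with gefitinib 26 members had a negative and 2 a positive interaction, with 39.5% of all genes called. The negative ones included 17 of 18 sterol enzymes, with a median of -2.15 over the arm, and 6 of 7 fatty acid genes, with a median of -1.60. TM7SF2 (-3.50 ± 0.21), MSMO1 (-3.20 ± 0.13) and HMGCS1 (-3.14 ± 0.12) had the largest. TM7SF2 with both agents was still called above untreated cells at every dose pair, with changes of 1.73 to 2.34. ABCA1 (1.69 ± 0.14) and MYLIP (1.53 ± 0.18) were the positive ones. ABCA1 with both agents was nevertheless called below untreated cells at every dose pair, with changes of -1.35 to -0.83. PMVK, SREBF1 and ELOVL6 were not called, with interactions of 0.16 (95% interval -0.08 to 0.40), -0.46 (-0.93 to 0.00) and 0.05 (-0.17 to 0.26).

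**Figure D4:**
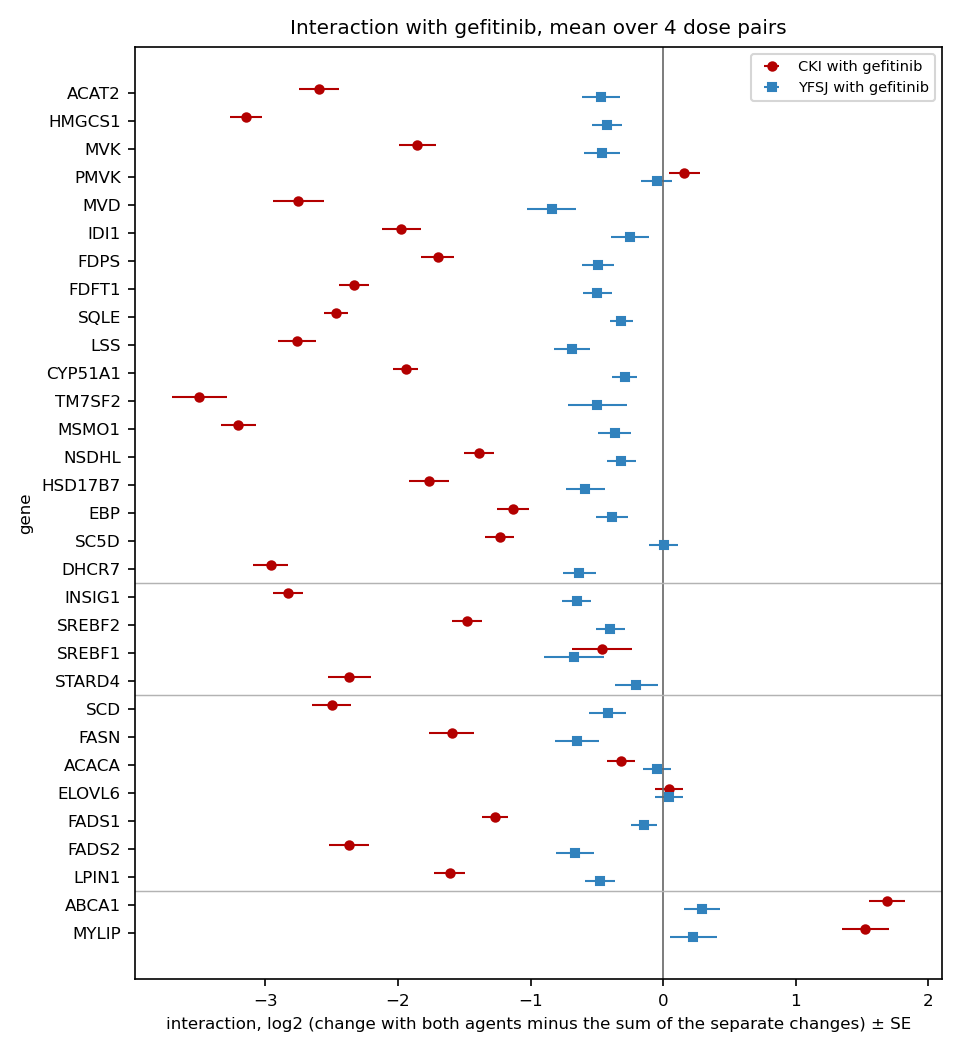
Interaction of CKI (red circles) and YFSJ (blue squares) with gefitinib for each tested member, on the log2 scale with its SE, as the mean over 4 dose pairs; horizontal lines part the arms. CKI has interactions from -3.50 for TM7SF2 to 1.69 for ABCA1, and YFSJ from -0.84 for MVD to 0.29 for ABCA1.

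Liver transcripts were present in 7 of the 12 libraries with CKI and gefitinib. All 3 libraries of CKI 1 mg/mL with 50 µM lacked them, at 0 to 3 ALB counts, and there the fall against gefitinib 50 µM was also seen in 29 members, with HMGCS1 at 139, 135 and 133 CPM, against 440, 439 and 515 CPM. The 1 library of CKI 2 mg/mL with 50 µM that lacked them had a sterol arm level of 0.05, and the other 2 had 0.04 and 0.03. A term for these libraries left the interaction counts at 26 and 2. The group of CKI 2 mg/mL with 75 µM, whose 3 libraries all hold such transcripts, gives no information on the size of this term. Within that group liver transcripts cannot be told apart from the treatment. The part of liver transcripts in the result was not tested. The transcript RNR2, of mitochondrial ribosomal RNA, took 1.02 to 1.56% of counts in the CKI and gefitinib libraries, 0.655 to 0.886% with gefitinib alone, 0.919 to 1.16% with CKI 2 mg/mL alone and 0.464 to 0.582% in untreated cells at 24 h, and its part in the result was not tested. In bulk RNA, fewer cells expressing a gene and less RNA of it per cell cannot be told apart.

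Fewer members were called when YFSJ was added to gefitinib. Against gefitinib 75 µM, YFSJ 5 mg/mL lowered 16 members and raised none (3.46% of all genes called), with a median of -0.43 over all members, and YFSJ 2.5 mg/mL lowered 1, MVD (1.83% called). Against gefitinib 50 µM, YFSJ 5 mg/mL lowered 13 members (0.937% called) and YFSJ 2.5 mg/mL none by edgeR (0.0887% called), where 11 members had an unadjusted p under 0.05 and DESeq2 called 1 lower. With YFSJ 5 mg/mL and 75 µM, INSIG1 had 327, 282 and 262 CPM, against 435, 440 and 413 CPM with gefitinib alone, a change of -0.56 ± 0.10 (adjusted p = 0.000355). SCD had 1054, 882 and 863 CPM with both, against 1525, 1682 and 1573 CPM with gefitinib alone, a change of -0.77 ± 0.13 (adjusted p = 0.000204), and LSS had 379, 400 and 472 CPM with both, against 578, 564 and 627 CPM. The libraries of these 3 genes did not overlap. HMGCS1 had 305, 277 and 284 CPM with both (-0.57 ± 0.11, adjusted p = 0.000573) and FDFT1 fell by 0.59 on the log2 scale (adjusted p = 0.000242).

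At 50 µM the count rested on single libraries of YFSJ 5 mg/mL with gefitinib. SCD had 885, 915 and 1713 CPM in its 3 libraries, against 1718, 1742 and 1882 CPM with gefitinib 50 µM, so that library 3 stood near gefitinib alone. LSS likewise had 408, 371 and 578 CPM and INSIG1 305, 299 and 434 CPM. The number of members called lower was 21 without library 3 and 0 without library 1 or without library 2 of this group, and 6, 8 and 8 without library 1, 2 and 3 of gefitinib 50 µM. At 75 µM it was 8 without library 2 of YFSJ 5 mg/mL with gefitinib and 9 without library 3 of gefitinib. The 1 member lower with YFSJ 2.5 mg/mL and 75 µM became 0 without any 1 gefitinib library or library 2 of the combination, and 4 without its library 1 or 3. Without that library 3, 2 members were also called higher.

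Against the preparation alone, gefitinib raised the members in YFSJ-treated cells as well. For YFSJ 5 mg/mL it raised 22 and lowered 3 at 75 µM (51.4% of all genes called), and raised 23 and lowered 2 at 50 µM (52.9% called). For YFSJ 2.5 mg/mL it raised 26 and lowered 3 at 75 µM (51.5% called), and raised 25 and lowered 3 at 50 µM (53.9% called). The interaction of YFSJ with gefitinib was negative for 13 members and positive for none, with 1.7% of all genes called. INSIG1 (-0.65 ± 0.11, adjusted p = 0.000234), DHCR7 (-0.63 ± 0.13, adjusted p = 0.00301) and LSS (-0.69 ± 0.14, adjusted p = 0.00307) had the smallest p. The count of 13 was 7 with a term for the libraries holding liver transcripts, 6 and 4 without library 1 and 2 of untreated cells, and 8 without library 2 of gefitinib 50 µM or library 3 of YFSJ 2.5 mg/mL.

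Untreated cells at 24 h differed from those at 0 h mainly in the fatty acid arm. At 24 h 11 members were lower and 1 higher, with 25.2% of all genes called, and 6 of the 7 fatty acid genes were among the lower. SCD had 429, 397 and 394 CPM at 24 h, against 756, 761 and 565 CPM at 0 h, a change of -0.77 ± 0.13 (adjusted p = 5.74e-05). DHCR7 had 92.7, 101 and 109 CPM at 24 h, against 192, 173 and 123 CPM at 0 h (-0.69 ± 0.12, adjusted p = 5.54e-05). SREBF2 had 133, 134 and 140 CPM at 24 h, against 231, 181 and 146 CPM at 0 h, and INSIG1 90.1, 83.5 and 94.0 CPM, against 105, 115 and 125 CPM. The libraries at 0 h were uneven, with 1.22 and 1.69% of counts from RNR2 in libraries 1 and 2 and 0.457% in library 3, and the part of this in the result was not tested. Without library 1 at 0 h 4 members were called lower, and with library 3 as the only one at 0 h none was called lower or higher. The 1 higher member, IDI1, was lost without library 1 or 2 at 0 h and without any 1 library at 24 h.

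Other genes of lipid metabolism were read from 6 further lists, and their counts stand beside the 54.7% of all genes called under gefitinib 75 µM. Under this dose, of 25 other lipogenic genes 11 rose and 9 fell, with a median of -0.02, and the largest changes were rises of ACSS2, which makes acetyl-CoA from acetate (1.98 ± 0.09), FADS3 (1.52 ± 0.18) and ACSL1, an acyl-CoA synthetase (1.22 ± 0.10). Of 12 tested genes of sterol uptake, storage and traffic 7 rose and 2 fell, among them NPC1, the lysosomal cholesterol exporter (1.19 ± 0.08), and CAV1, a component of caveolae (-1.53 ± 0.11). Of 11 tested other sterol and isoprenoid genes 2 rose and 6 fell, with PDSS1 of ubiquinone synthesis at -1.85 ± 0.16. Of 5 other LXR targets tested 4 rose and 1 fell, with MLXIPL at 1.76 ± 0.33 and SMPDL3A at 1.02 ± 0.26, opposite in direction to ABCA1 and MYLIP. Of 12 genes of the SREBP machinery and LXR 4 rose and 1 fell, with NR1H3, which encodes LXR-alpha and is also on the list of other LXR targets, at 0.54 ± 0.14.

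Of 13 tested genes of fatty acid oxidation, 1 rose and 4 fell with gefitinib 75 µM, and 5 rose and 4 fell with CKI 2 mg/mL, where 54.7% and 51.2% of all genes were called. PDK4, which shuts pyruvate out of the mitochondrial citrate cycle, changed by -1.38 ± 0.40 with gefitinib 75 µM (adjusted p = 0.00282) and by 2.42 ± 0.25 with CKI 2 mg/mL (adjusted p = 3.52e-11). CPT1A, the gate of fatty acid entry into mitochondria, rose by 1.44 ± 0.13 with CKI 2 mg/mL (adjusted p = 1.68e-12). When CKI 2 mg/mL was added to gefitinib 75 µM, PDK4 rose by 5.24 ± 0.27 and CPT1A by 1.66 ± 0.13, against gefitinib alone, and 5 of the 13 tested genes of this list rose and 7 fell (58.2% of all genes called). PDK4 averaged 12.03 ± 1.16 CPM with both agents, against 0.315 ± 0.156 CPM with gefitinib 75 µM alone and 0.823 ± 0.055 CPM in untreated cells (SD, n = 3 each). Its level with gefitinib alone was close to that of 3 counts, so the size of this fold is uncertain. ACSS2 had an interaction of -2.57 ± 0.10 for CKI with gefitinib, and among 25 other lipogenic genes 15 interactions were negative and 5 positive, with a median of -0.43 and 39.5% of all genes called. NPC1 had -1.30 ± 0.09 in the same test.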

How the data were processed

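The authors deposited whole-number counts per gene for 48 libraries of unstranded paired-end RNA-seq of H1975 cells. Per the submitters' processing notes, Trim Galore 0.4.2, STAR 2.5.3a, edgeR and the hg19 build were used. The counting tool, annotation and strand setting are not given in the sources used here. The files were read as raw counts, with totals of 16428398 to 26264162 per library. The series' design text calls the 3 libraries of a group biological replicates. Whether they came from separate cultures is not stated, so p-values measure only the spread between these libraries.

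The 32 members and the further gene lists were chosen with earlier results of these data known. Genes were kept by filterByExpr (minimum count 10, minimum total 15), which left 15789. One quasi-likelihood model in edgeR 4.0.16 (R 4.3.3, TMM factors, 16 group means) was fitted to all genes, and p-values were adjusted by Benjamini-Hochberg over all of them. The script was tested on simulated data. Means of an arm used log2(CPM + 0.5). All 32 members could be named. Values by library were to be given for LSS, HMGCS1, INSIG1, SREBF1, SREBF2, SCD, FASN, ABCA1, ABCG1, MYLIP, STARD4 and, for each agent alone against untreated cells, the member of each arm with the smallest p; ABCG1 is given mainly as sums, and some groups of the others by counts and arm means. From other pathway lists at most the 3 largest called changes were named. Members and promoters described beyond this were chosen after their values were seen. Promoters came from RefSeq (GRCh38.p14) and overlaps from GENCODE 29.

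Alternatives were relative log expression factors, library totals, no filter, DESeq2 1.42.0, a threshold of 0.01, a replicate block, a term for libraries with over 1000 ALB counts, only the libraries compared, and leaving out each library. Of 360 same-numbered pairs of libraries, 56 had deviations correlated over 0.1 (15.6%, median -0.0111), so the numbers were not taken as pairs. No replicate pair had identical counts.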

Additional observations from a re-analysis of the deposited data

Results flagged for a closer look

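The change with gefitinib differed between cells with and without CKI for 28 members, by the edgeR interaction test averaged over 4 dose pairs, which called 39.5% of all genes. The log2 interactions below zero were ACAT2 -2.59, HMGCS1 -3.14, MVK -1.85, MVD -2.75, IDI1 -1.98, FDPS -1.7, FDFT1 -2.33, SQLE -2.47, LSS -2.76, CYP51A1 -1.94, TM7SF2 -3.5, MSMO1 -3.2, NSDHL -1.39, HSD17B7 -1.77, EBP -1.13, SC5D -1.23, DHCR7 -2.96, INSIG1 -2.83, SREBF2 -1.48, STARD4 -2.37, SCD -2.5, FASN -1.6, ACACA -0.316, FADS1 -1.27, FADS2 -2.37, LPIN1 -1.61. Above zero were ABCA1 1.69 and MYLIP 1.53, both LXR targets, although ABCA1 with both agents was called below untreated cells at every dose pair (-1.35 to -0.83). The adjusted p of these 28 ran up to 0.0146, the value of ACACA.

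The change with gefitinib also differed between cells with and without YFSJ for 13 members, where 1.7% of all genes were called. The log2 interactions were HMGCS1 -0.423, MVD -0.841, FDPS -0.489, FDFT1 -0.498, SQLE -0.315, LSS -0.688, HSD17B7 -0.586, DHCR7 -0.632, INSIG1 -0.651, SREBF2 -0.398, FASN -0.65, FADS2 -0.666, LPIN1 -0.474. The adjusted p ran up to 0.0483, the value of SQLE. All 3 libraries of YFSJ 2.5 mg/mL hold liver transcripts, and with a term for such libraries 7 members were called. The size of that term came from groups with libraries of both kinds. Within YFSJ 2.5 mg/mL, liver transcripts cannot be told apart from the treatment.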

How the results depend on the processing

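Members called in the CKI by gefitinib interaction numbered 2 above and 25 to 27 below zero over all settings. Counts near a threshold moved. With an adjusted p under 0.01 the counts became: CKI 1 mg/mL 2 lower; YFSJ 2.5 and 5 mg/mL 0 higher; CKI 2 mg/mL with gefitinib 75 µM against gefitinib 1 higher; YFSJ 2.5 mg/mL with 75 µM against gefitinib 0 lower; YFSJ 5 mg/mL against gefitinib 4 lower with 50 µM and 10 lower with 75 µM; CKI 2 mg/mL with 50 µM against CKI alone with 1 higher; YFSJ by gefitinib 5 lower; untreated 24 h against 0 h 0 higher and 7 lower; CKI 1 mg/mL with 75 µM against untreated 5 higher; CKI 2 mg/mL with 50 µM against untreated 8 lower. With library totals alone, which moved the median of all genes to 0.13 for gefitinib 50 µM, they were: CKI 2 mg/mL 3 lower, YFSJ 2.5 mg/mL 2 higher, gefitinib 75 µM against CKI 2 mg/mL alone with 2 lower, CKI 1 mg/mL with 50 µM against gefitinib 1 higher, YFSJ 5 mg/mL with 50 µM against YFSJ 1 lower, and, against untreated cells, CKI 1 mg/mL with 50 µM 3, CKI 1 mg/mL with 75 µM 6, CKI 2 mg/mL with 50 µM 6 and CKI 2 mg/mL with 75 µM 8 lower. With the ALB term YFSJ 2.5 mg/mL had 0 higher, CKI 2 mg/mL with 75 µM against gefitinib and with 50 µM against CKI alone had 1 higher each, YFSJ by gefitinib 7 lower, and CKI 1 mg/mL with 75 µM against untreated 5 higher.

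With only the libraries compared, YFSJ 2.5 mg/mL had 3 and 5 mg/mL 4 higher, YFSJ 2.5 mg/mL with 75 µM and 5 mg/mL with 50 µM 0 lower, 5 mg/mL with 75 µM 1 higher, and untreated 24 h against 0 h 0 higher and 1 lower. DESeq2 called 4 higher for YFSJ 5 mg/mL, 1 lower for YFSJ 2.5 mg/mL with 50 µM, 2 higher and 3 lower with 75 µM, and 0 higher for 24 h against 0 h. Without the filter the call for YFSJ 2.5 mg/mL with 75 µM was 0 lower, and 24 h against 0 h had 0 higher, as with relative log expression factors. With library 3 alone at 0 h, 24 h had 0 higher and 0 lower, IDI1 turned to -0.0117 and ELOVL6 to 0.0238. The cause of these changes was not tested.

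Leaving out single libraries gave these ranges: CKI 1 mg/mL 2 to 4 lower (2 without untreated library 3); CKI 2 against 1 mg/mL 1 to 2 higher (1 without CKI 2 mg/mL library 3); YFSJ 2.5 mg/mL 0 to 1 and 5 mg/mL 0 to 2 higher; CKI 2 mg/mL with 75 µM against gefitinib 1 to 2 higher; CKI 2 mg/mL with 50 µM against CKI alone, 1 to 2 higher (1 without CKI library 2 or combination library 1 or 3); YFSJ 2.5 mg/mL with 75 µM 0 to 2 higher and 0 to 4 lower; YFSJ 5 mg/mL 0 to 21 lower with 50 µM and 8 to 12 with 75 µM; YFSJ by gefitinib 4 to 19 lower; 24 h against 0 h 0 to 1 higher and 4 to 13 lower; against untreated, CKI 1 mg/mL with 75 µM 5 to 7 higher (5 without its library 2) and CKI 2 mg/mL with 50 µM 9 to 13 lower (9 without untreated library 3).

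A replicate block left 639 calls on single members as they were, lost 4 and added 3, and gave 11 lower for YFSJ by gefitinib, in place of 13. Only 9 of 48 libraries correlated best with their own number, so the numbers do not show a pairing. The depth left ABCG1 without a test.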
